A study of Homo sapiens with 14 samples.

Results

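PC3-ML (Clone 3), called Clone 3 here, is a line grown from 1 cell of PC3-ML, and its labels give it as bone metastatic. It was set against PC3-N, which the labels give as not bone metastatic. Both lines go back to PC3, an androgen-independent human prostate cancer line that was first isolated from a bone metastasis. The comparison takes the 2 arrays titled for Clone 3 and the 2 titled for PC3-N, 4 of the 14 expression arrays in the series, and runs across all 18372 genes that a probe set names by exactly 1 symbol. The series also holds the bone-metastatic lines Clone 1 (another line from 1 PC3-ML cell), PC3-ML and PC3-N(PDGFRα), in which the receptor PDGFRα is overexpressed, and 2 lines of DU-145, another prostate cancer line. All lines grew in the same serum-containing medium, with no treatment or engineered allele named for Clone 3 or PC3-N. The 2 arrays of a line come from different passages of its culture. A p-value therefore sets a difference beside the passage-to-passage spread, and Clone 3 stands for 1 cell's progeny, not for PC3-ML or for bone-metastatic cells at large.

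Values are array intensities on the linear scale that the authors deposited, where the median probe set of an array lies between 29.9 and 31.6. A line's level below 29.9 is called near the floor here, and a fold change against such a level is a low estimate. Across genes, the 2 Clone 3 arrays correlated at r = 0.995 and the 2 PC3-N arrays at 0.9925, and PC3-N array 2 correlated with PC3-ML array 2 at 0.9935, no less closely than with its own partner. Both lines expressed some epithelial markers. KRT19 was at 571 and 473 in Clone 3 and at 684 and 513 in PC3-N, and EPCAM at 434 and 473 against 519 and 620. This EPCAM probe set was not called (log2 change −0.32, adjusted p = 0.174), whereas a second, dimmer one was lower in Clone 3 (−0.72, adjusted p = 0.0220). CDH1, which encodes E-cadherin, read 32.3 and 30.4 in Clone 3 and 33.9 and 29.5 in PC3-N, so this epithelial marker was barely above the floor in both. Some mesenchymal genes were bright in both lines: CDH2 averaged 632 in Clone 3 and 486 in PC3-N, CDH11 842 and 856, and VIM 361 and 325. Of 14 mesenchymal genes measured, 4 were near the floor in both lines. CTNNA1, which encodes alpha-catenin and is lost from the PC3 genome, read 24.4 and 23.0 in Clone 3 and 23.0 and 23.6 in PC3-N. None of 9 leukocyte, 8 endothelial and 10 fibroblast markers measured was called, beside 6.86% of all genes. The 9 leukocyte markers summed to 299 and 300 on the Clone 3 arrays and to 315 and 308 on the PC3-N arrays, with 7 of 9 near the floor in Clone 3 and 6 of 9 in PC3-N.

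The comparison asks how a clone labelled bone metastatic differs from a PC3 subline that is not. At an adjusted p under 0.05 (limma, Benjamini-Hochberg over all 18372 genes, two-sided), 1260 genes were called, 6.86% of those tested. Of these, 765 were higher in Clone 3 (4.16%) and 495 lower (2.69%), and 3557 genes (19.4%) had an unadjusted p under 0.05. Every count of called members in a gene list below is to be read against the 4.16% and 2.69%. The lists were chosen with earlier results of these data known. The higher calls were 60.7% of the total, but 52.0% after quantile normalization (611 higher and 563 lower) and 52.5% without PC3-N array 2 (413 and 374). Most of the called changes were small: the median rise was 0.55 and the median fall −0.56 on the log2 scale, around a median of −0.02 over all genes. Called changes of at least 2-fold comprised 51 rises (0.278% of genes) and 37 falls (0.201%). PC3-N was near the floor for 10 of the 51 rises, and Clone 3 for 6 of the 37 falls. Small nucleolar and Cajal body RNAs made up 8 of the 37 falls and 0 of the 51 rises; over the 193 of them measured, 11 were called lower and 0 higher. They include the largest fall of all, in SNORD116-6, which read 41.6 and 45.2 in Clone 3, against 382 and 449 in PC3-N (−3.25, SE 0.30, adjusted p = 0.000431). SNORD116-6 belongs to a cluster of near-identical copies that its probe set may also read, and the small RNAs were otherwise left out of the genes named. The count of 1260 came to 484 when the 4 arrays were fitted alone, and to 787, 606 and 604 without PC3-N array 2, Clone 3 array 1 and Clone 3 array 2.

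**Figure D1:**
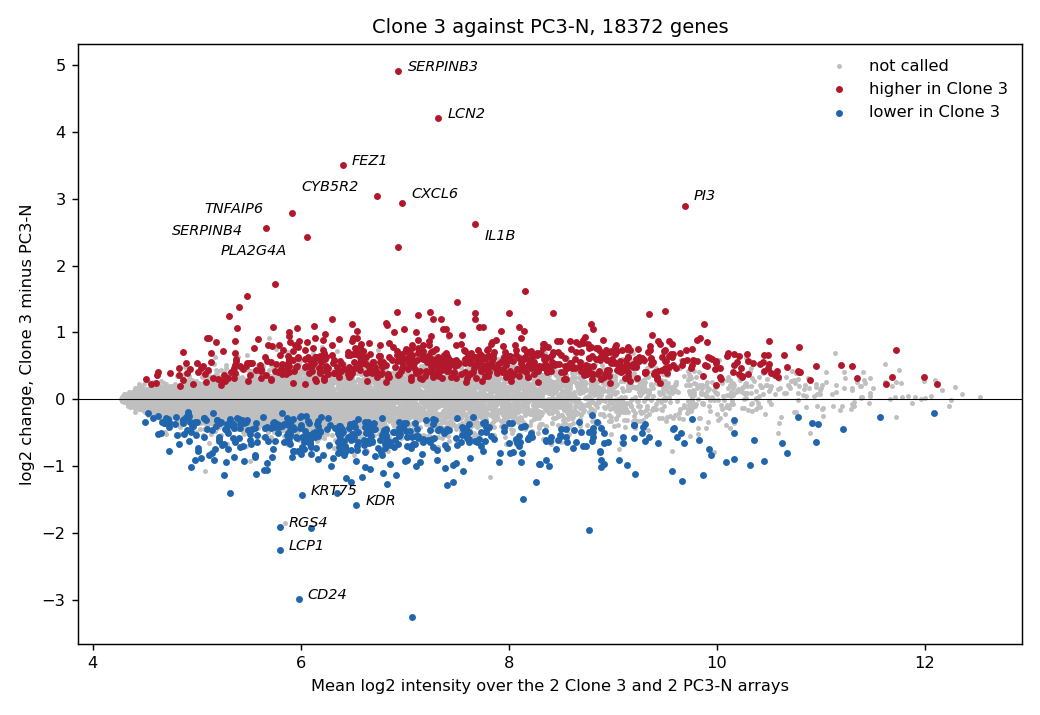
Log2 change of every gene, Clone 3 minus PC3-N (vertical axis), by its mean log2 intensity over the 4 arrays (horizontal axis). Each point is a gene, red where called higher in Clone 3 (765), blue where called lower (495) and grey where not called. SERPINB3 stands highest at 4.91. The lowest called point is the small nucleolar RNA SNORD116-6 at −3.25, followed by CD24 at −3.00.

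SERPINB3 had the largest rise of all genes, and 4 of its neighbours in the serpin cluster rose by less. Clade B serpins are intracellular relatives of the secreted protease inhibitors. They block serine or cysteine proteases, and most human members lie side by side in a single cluster. SERPINB3, known as squamous cell carcinoma antigen 1 and an inhibitor of lysosomal cysteine proteases, read 643 and 705 in Clone 3, against 23.0 and 21.8 in PC3-N (a log2 change of 4.91, SE 0.11, adjusted p = 2.43e-08). PC3-N lies at the floor, so the 30.1-fold difference is a low estimate. SERPINB4, its closest relative, read 99 and 154 in Clone 3, against 20.9 and 20.7 in PC3-N (2.57, SE 0.18, adjusted p = 7.46e-05). Both genes were also at the floor in the 3 other PC3 lines, where SERPINB3 averaged 29.8 in PC3-ML, 25.4 in Clone 1 and 29.1 in PC3-N(PDGFRα). The pair are near-identical copies, and a probe set of one may read the other. Their RefSeq promoters on GRCh38.p14 (250 bases before the start to 50 after it, at chr18:63661844-63662143 and chr18:63644207-63644506, both on the minus strand) were the same at 296 of 300 bases. They are shown to let the likeness of the 2 copies be seen, with the 4 bases that differ in capitals.
SERPINB3: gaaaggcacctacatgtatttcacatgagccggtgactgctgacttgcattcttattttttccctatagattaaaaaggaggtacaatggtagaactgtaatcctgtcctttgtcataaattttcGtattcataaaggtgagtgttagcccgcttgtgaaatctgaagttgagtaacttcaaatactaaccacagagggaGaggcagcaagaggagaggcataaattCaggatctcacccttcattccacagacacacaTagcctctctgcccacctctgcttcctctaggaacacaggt
SERPINB4: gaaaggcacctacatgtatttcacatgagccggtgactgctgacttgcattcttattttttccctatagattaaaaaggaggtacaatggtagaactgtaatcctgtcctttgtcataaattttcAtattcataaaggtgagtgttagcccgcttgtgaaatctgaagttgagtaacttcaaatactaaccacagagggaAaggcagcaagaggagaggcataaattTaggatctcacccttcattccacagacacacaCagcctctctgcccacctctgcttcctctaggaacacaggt

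Of the 11 clade B serpins measured, 5 rose in Clone 3 and 0 fell, beside 4.16% and 2.69% of all genes. The median log2 change over the 11 was 0.34. SERPINB5, or maspin, which is expressed in normal prostate epithelium, read 172 and 162 in Clone 3 and 74.2 and 80.4 in PC3-N (a log2 change of 1.11, SE 0.12, adjusted p = 0.00132). SERPINB7 read 525 and 661 against 297 and 319 (0.94, adjusted p = 0.00266), and SERPINB8 read 236 and 191 against 126 and 95.5 (0.95, adjusted p = 0.00459). The 5 risen genes all lie in a run of 9 neighbouring serpin genes. That run holds 9 of the 11 measured, so most risen members would lie in it in any case. The other members of that run, SERPINB10, SERPINB11, SERPINB12 and SERPINB13, were near the floor in both lines and were not called. Fitted on the 4 arrays alone, SERPINB7 and SERPINB8 had adjusted p of 0.0511 and 0.0820.

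A second group of large rises encodes secreted proteins of epithelial defence. Lipocalin 2, elafin and the secretory leukocyte protease inhibitor are made by epithelia in inflammation. Lipocalin 2 binds bacterial iron carriers, and elafin and SLPI inhibit the proteases of neutrophils. LCN2, the lipocalin 2 gene, read 724 and 654 in Clone 3, against 33.5 and 41.2 in PC3-N (a log2 change of 4.21, SE 0.21, adjusted p = 8.51e-06). PI3, which encodes elafin, read 2261 and 2260 in Clone 3, against 260 and 356 in PC3-N (2.89, SE 0.21, adjusted p = 9.63e-05). SLPI read 246 and 296 in Clone 3, against 61.8 and 50.5 in PC3-N (2.27, SE 0.15, adjusted p = 4.38e-05). For each of the 3 genes both Clone 3 arrays lay above all 8 arrays of the other PC3 lines. Of all genes 5.8% had that pattern, but the 3 were chosen to lie above the 2 PC3-N arrays, so the shares cannot be compared. PI3 was higher in Clone 3 by 1.09 than in PC3-ML and by 1.08 than in Clone 1, against 2.89 over PC3-N. LCN2 averaged 61.4 in PC3-ML and 77.6 in Clone 1, while PI3 averaged 1064 in PC3-ML, 1078 in Clone 1 and 1356 in PC3-N(PDGFRα), so that PC3-N had the lowest PI3 mean of the 5 PC3 lines. These 3 were the only members called among the 18 secreted defence genes measured, whose median change was 0.02. TFF1, a trefoil peptide of mucus, read 763 and 588 against 589 and 330 and was not called (adjusted p = 0.369), and 9 of the 18 were near the floor in both lines.

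Interleukin-1 beta is an inflammatory cytokine whose receptor activates the transcription factor NF-kB. NF-kB in turn switches on chemokine genes, its own inhibitors and IL1B itself. IL1B read 561 and 461 in Clone 3, against 71.4 and 95.5 in PC3-N (a log2 change of 2.62, SE 0.14, adjusted p = 9.34e-06). The 2 lines were well apart, but Clone 3 was not the highest: Clone 1 averaged 737 and PC3-N(PDGFRα) 1085, against 261 in PC3-ML. Of the 12 genes of the interleukin-1 family and its receptors, 2 rose and 1 fell, with 8 near the floor in both lines and a median of 0.02. The second rise was IL18, a related cytokine, at 110 and 115 in Clone 3 and 70.3 and 52.0 in PC3-N (0.90, adjusted p = 0.0132), and the fall was IL1RL1, the receptor for interleukin-33, at 23.9 and 23.5 against 29.96 and 29.95 (−0.34, adjusted p = 0.0348). IL18 lost its call without PC3-N array 2 or either Clone 3 array (adjusted p up to 0.0826), and IL1RL1 without any 1 of the 4 arrays (up to 0.155).

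Some of the chemokines that draw neutrophils were called higher and others were not. CXCL6 read 375 and 323 in Clone 3, against 45.9 and 45.0 in PC3-N (a log2 change of 2.94, SE 0.12, adjusted p = 1.55e-06). CXCL1 read 548 and 458 in Clone 3, against 149 and 179 in PC3-N (1.62, SE 0.17, adjusted p = 0.00102). Both genes were at similar levels in Clone 1, with means of 351 for CXCL6 and 487 for CXCL1. CXCL2 read 114 and 91.5 in Clone 3 and 47.5 and 47.9 in PC3-N (1.10, adjusted p = 0.0437), and CCL20, which draws lymphocytes and dendritic cells, read 41.8 and 33.2 against 22.6 and 23.1 (0.70, adjusted p = 0.0133). CXCL8, which encodes interleukin-8, read 253 and 220 in Clone 3 and 106 and 145 in PC3-N and was not called (0.93, adjusted p = 0.0752). Nor were CXCL3 (0.21, adjusted p = 0.328) and CXCL5 (0.24, adjusted p = 0.195). In all, 4 of the 13 chemokines measured rose and 0 fell, beside 4.16% and 2.69% of all genes, with a median of 0.21. CXCL2 lost its call without any 1 of the 4 arrays (adjusted p up to 0.223) and after quantile normalization (0.0576), and CCL20 without either PC3-N array or Clone 3 array 1 (up to 0.0935).

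The promoters of LCN2, CXCL6, CXCL1 and CXCL2 are shown because each holds a match to the κB consensus, the 10-base site that NF-kB dimers bind. Capitals mark the match. LCN2 lies at chr9:128149203-128149502, CXCL6 at chr4:73836428-73836727 and CXCL1 at chr4:73869143-73869442, all on the plus strand, and CXCL2 at chr4:74099146-74099445 on the minus strand (RefSeq, GRCh38.p14). In the 3 chemokine promoters the capitals hold 2 overlapping matches, 1 on each strand. They end between 68 and 80 bases before the start of the gene, and the LCN2 match ends 166 bases before it.
LCN2: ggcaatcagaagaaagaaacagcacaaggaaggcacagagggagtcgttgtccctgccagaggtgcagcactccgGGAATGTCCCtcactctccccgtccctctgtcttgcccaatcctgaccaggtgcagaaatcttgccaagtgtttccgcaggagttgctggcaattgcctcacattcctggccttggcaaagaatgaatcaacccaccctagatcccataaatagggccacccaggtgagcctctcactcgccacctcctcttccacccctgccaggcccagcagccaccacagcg
CXCL6: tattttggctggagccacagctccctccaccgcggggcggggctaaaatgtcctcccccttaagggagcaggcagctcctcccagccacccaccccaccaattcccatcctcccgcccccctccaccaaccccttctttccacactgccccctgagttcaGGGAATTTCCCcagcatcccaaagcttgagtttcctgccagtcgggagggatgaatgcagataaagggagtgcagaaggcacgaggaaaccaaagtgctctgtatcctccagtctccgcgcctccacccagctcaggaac
CXCL1: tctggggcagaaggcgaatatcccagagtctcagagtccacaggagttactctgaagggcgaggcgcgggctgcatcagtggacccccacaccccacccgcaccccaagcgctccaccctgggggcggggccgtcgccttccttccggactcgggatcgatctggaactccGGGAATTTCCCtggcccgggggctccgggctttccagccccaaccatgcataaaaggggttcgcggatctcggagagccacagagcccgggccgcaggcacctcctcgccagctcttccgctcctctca
CXCL2: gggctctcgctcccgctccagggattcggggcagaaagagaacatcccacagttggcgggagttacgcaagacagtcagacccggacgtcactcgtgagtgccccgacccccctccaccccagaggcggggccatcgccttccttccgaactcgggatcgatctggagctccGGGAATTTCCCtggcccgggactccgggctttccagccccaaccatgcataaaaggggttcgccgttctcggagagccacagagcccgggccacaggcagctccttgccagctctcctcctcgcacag
Searched on both strands, the κB consensus was present in 3956 of 35116 RefSeq promoters of this length, 11.3%. Of the 15 largest rises, 12 had a promoter in the table, and 3 of these (LCN2, CXCL6 and CXCL1) held a match. This counts genes, of which SOD2, CYB5R2 and EHF had 4, 3 and 2 promoters. The 11.3% counts promoters, so the 2 shares cannot be set against each other. A match is a run of letters and does not show that NF-kB binds there in these cells. IL1B, SERPINB3 and SOD2 had no match in this window.

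Of 18 NF-kB subunits and genes of its pathway and feedback, 4 rose and 0 fell, beside 4.16% and 2.69% of all genes, and the median was 0.11. NFKBIA, which encodes the inhibitor IkB-alpha, read 206 and 187 in Clone 3, against 88.9 and 107 in PC3-N (a log2 change of 1.01, SE 0.12, adjusted p = 0.00144). TNIP1, an inhibitor of the pathway, read 150 and 159 against 95.3 and 78.2 (0.84, adjusted p = 0.00239). ZC3H12A, a ribonuclease that degrades cytokine messages, read 44.7 and 43.4 against 35.1 and 35.5 (0.32, adjusted p = 0.00475). The arrays of the lines did not overlap for these 3 negative regulators. The share of all genes with no such overlap is not given here, so this adds nothing to the calls. NFKB1, the p50 subunit, was at 121 and 113 in Clone 3 and 80.5 and 79.7 in PC3-N (0.55, adjusted p = 0.0440), and lost its call without any 1 of the 4 arrays (up to 0.208). The subunit REL had a change of 0.59 (adjusted p = 0.0520) and NFKBIZ 0.70 (0.0615), so neither passed. TNIP1 and ZC3H12A had adjusted p of 0.0505 and 0.0626 with the 4 arrays fitted alone.

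Of 17 further NF-kB-responsive genes, 4 rose and 0 fell, with a median of −0.01 and 9 near the floor in both lines. SOD2, the mitochondrial superoxide dismutase, read 382 and 238 in Clone 3, against 122 and 99.1 in PC3-N (a log2 change of 1.46, SE 0.20, adjusted p = 0.00264), and missed the threshold when the 4 arrays were fitted alone (0.0738). ICAM1, an adhesion molecule for leukocytes, read 45.4 and 44.1 against 28.3 and 27.0 (0.69, adjusted p = 0.00264). The complement gene C3 read 43.5 and 52.3 against 25.8 and 25 (0.91, adjusted p = 0.0368), and PTGS2, or cyclooxygenase 2, read 43.8 and 34.0 against 28.2 and 25 (0.54, adjusted p = 0.0218). IL6 was not called, at 26.8 and 28.0 in Clone 3 and 32.9 and 28.6 in PC3-N (adjusted p = 0.745). C3 lost its call without any 1 of the 4 arrays (up to 0.197), and PTGS2 without PC3-N array 2 or Clone 3 array 1, where its change was 0.36 (up to 0.133).

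The remaining large rises have varied roles. FEZ1, a kinesin adaptor known from axon outgrowth, read 284 and 286 in Clone 3, against 24.9 and 25.3 in PC3-N (a log2 change of 3.50, SE 0.11, adjusted p = 3.68e-07). CYB5R2, a cytochrome b5 reductase, read 304 and 306 against 39.6 and 34.7 (3.04, SE 0.13, adjusted p = 2.63e-06). TNFAIP6, a secreted hyaluronan-binding protein induced in inflammation, read 163 and 153 against 22.7 and 23.2 (2.78, SE 0.10, adjusted p = 7.66e-07). The arrays of each line lay close together for these genes, and FEZ1 and TNFAIP6 were at the floor in PC3-N. PLA2G4A, the cytosolic phospholipase that frees arachidonic acid, read 152 and 157 in Clone 3, against 29.8 and 27.8 in PC3-N (2.42, SE 0.14, adjusted p = 2.01e-05). FER1L6, of the ferlin family, read 96.3 and 101 against 29.7 and 29.6 (1.73, adjusted p = 8.22e-06), and EHF, an ETS transcription factor of epithelia, read 79.2 and 73.8 against 26.4 and 25.8 (1.55, adjusted p = 1.47e-05). All 15 largest rises kept their call without any 1 of the 4 arrays. In 11 of the 15, both Clone 3 arrays lay above all 8 arrays of the other PC3 lines, a pattern that 5.8% of all genes had. The 15 were chosen to lie above the 2 PC3-N arrays, so these shares cannot be set against each other. The exceptions were CXCL6, CXCL1, IL1B and SOD2, whose levels Clone 1 or PC3-N(PDGFRα) matched or passed.

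**Figure D2:**
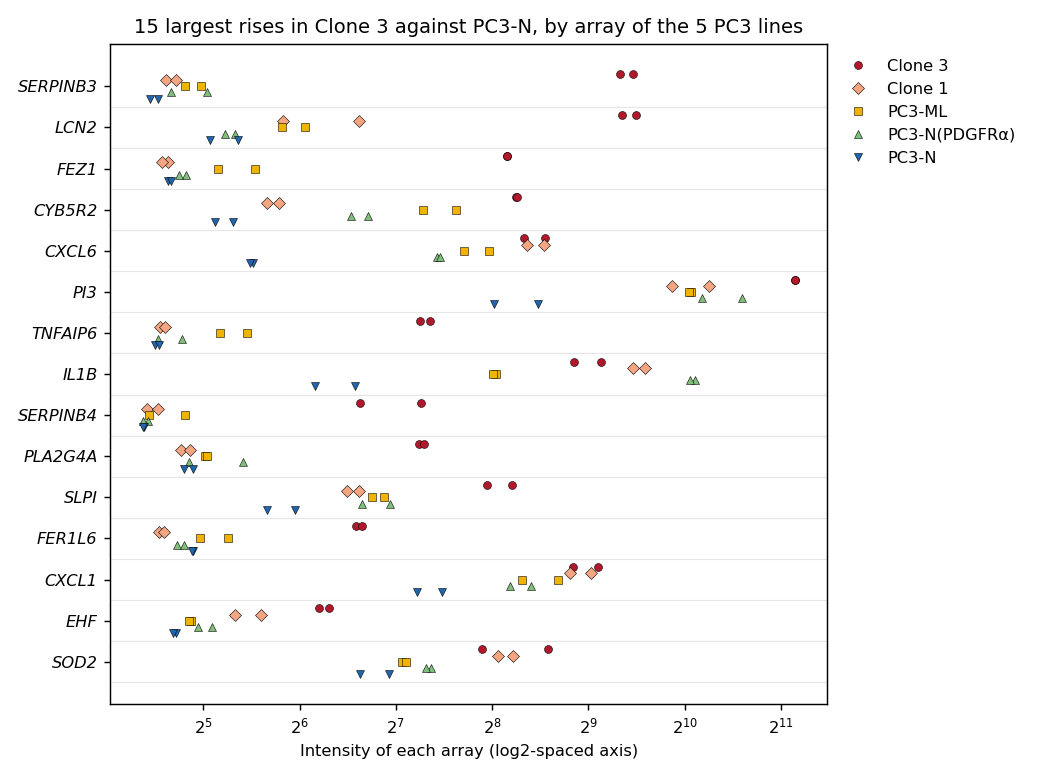
Intensity (horizontal axis, log2-spaced) of the 15 genes with the largest rises in Clone 3 against PC3-N, 1 row per gene, with 1 symbol per array of the 5 PC3 lines. The Clone 3 arrays of SERPINB3 lie at 643 and 705, against 23.0 and 21.8 in PC3-N, while for IL1B the arrays of Clone 1 and PC3-N(PDGFRα) lie at or right of Clone 3.

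Outside the small RNAs, the largest fall was in CD24, a small sialoglycoprotein of the cell surface used as a marker in sorting prostate and breast cancer cells. CD24 read 23.4 and 21.3 in Clone 3, against 230 and 138 in PC3-N (a log2 change of −3.00, SE 0.24, adjusted p = 0.000194). Clone 3 was at the floor, and the PC3-ML and Clone 1 means of 99 and 77.6 lay between the 2 lines. The genome holds processed copies of CD24, which a probe set may also read. LCP1, or L-plastin, bundles actin in leukocytes and in many carcinoma cells. It read 25.5 and 25.3 in Clone 3, against 117 and 127 in PC3-N (−2.26, SE 0.13, adjusted p = 2.09e-05). Every other PC3 line expressed LCP1, with means of 208 in PC3-ML, 793 in Clone 1 and 415 in PC3-N(PDGFRα). ARHGDIB read 24.6 and 24.5 in Clone 3, against 62.1 and 68.2 in PC3-N (−1.41, SE 0.12, adjusted p = 0.000231), and was likewise higher in the 3 other lines (70.2 to 149). LCP1 and ARHGDIB are both best known from blood cells. None of the 9 leukocyte markers was called. Of these, LYZ read 22.4 and 21.2 in Clone 3 and 37.4 and 25.1 in PC3-N (−0.49, adjusted p = 0.0758), and NKG7 read 41.3 and 46.1 against 46.6 and 45.0, above the floor in both lines. Their part in the falls of LCP1 and ARHGDIB was not tested.

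The actin bundlers and membrane skeleton genes had 2 falls and 1 rise among 11 measured, with a median of −0.06. Besides LCP1, EPB41L3, a protein 4.1 family member that links the membrane to actin, fell: it read 27.9 and 28.4 in Clone 3, against 46.5 and 62.7 in PC3-N (log2 change −0.94, adjusted p = 0.00268; 0.0665 with the 4 arrays fitted alone). The rise was RDX, or radixin (0.49, adjusted p = 0.0498), which lost its call without any 1 of the 4 arrays (up to 0.209) and after quantile normalization (0.177).

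RGS4, which speeds the switching-off of G-protein subunits, read 29.6 and 27.9 in Clone 3, against 132 and 88.6 in PC3-N (a log2 change of −1.91, SE 0.17, adjusted p = 0.000293). It was the single gene called among 10 regulators of G-protein signalling, and here PC3-N stood alone: PC3-ML, Clone 1 and PC3-N(PDGFRα) averaged 32.1, 35 and 38.4. KDR, the main signalling receptor for vascular endothelial growth factor (VEGF), read 50.9 and 56.2 in Clone 3, against 194 and 133 in PC3-N (−1.59, SE 0.24, adjusted p = 0.00453). VEGFC, a lymphatic growth factor, read 216 and 227 against 329 and 361 (−0.64, adjusted p = 0.00321). The co-receptor NRP2 fell too (−0.34, adjusted p = 0.0359), at 26.5 and 27.9 in Clone 3, near the floor, against 32.2 and 36.6 in PC3-N. In all, 3 of the 10 VEGF ligands and receptors fell and 0 rose, beside 2.69% and 4.16% of all genes, with a median of −0.11. The other co-receptor, NRP1, read 745 and 744 in Clone 3 and 512 and 415 in PC3-N and was not called (0.69, adjusted p = 0.0828). NRP2 lost its call without PC3-N array 2 or either Clone 3 array (up to 0.215) and after quantile normalization (up to 0.131 over the settings that ended it).

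Keratins 8 and 75 fell among 14 keratins measured, of which 0 rose (median −0.03). KRT8, a keratin of simple epithelia, read 227 and 253 in Clone 3, against 511 and 395 in PC3-N (a log2 change of −0.91, SE 0.16, adjusted p = 0.00921), and lost its call without PC3-N array 1 or Clone 3 array 1 (up to 0.0699). KRT75, a hair follicle keratin, read 43.9 and 35 against 175 and 64.5 (−1.44, SE 0.36, adjusted p = 0.0409). Its 2 PC3-N passages differed widely, and the change was −0.72 without PC3-N array 1 (adjusted p = 0.0724). It lost its call without either Clone 3 array too (up to 0.199). KRT20 had the same kind of spread, at 32.7 and 27.9 in Clone 3 and 233 and 51.5 in PC3-N, and was not called (−1.86, adjusted p = 0.0556).

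Matrix proteases and their inhibitors had 4 falls and 1 rise among 18, with a median of −0.10. TIMP2, an inhibitor of metalloproteinases, read 218 and 182 in Clone 3, against 477 and 465 in PC3-N (a log2 change of −1.24, SE 0.15, adjusted p = 0.00164). PLAT, the tissue plasminogen activator, read 272 and 205 against 523 and 430 (−1.01, adjusted p = 0.00844). TIMP3 was at 36.0 and 30.8 against 45.8 and 46.8 (−0.48, adjusted p = 0.0142), but its second probe set did not pass (−0.16, adjusted p = 0.342). ADAM19, a membrane protease, had a change of −0.36 (adjusted p = 0.0495). TIMP1 rose where TIMP2 fell, at 439 and 436 in Clone 3 and 235 and 275 in PC3-N (0.78, adjusted p = 0.0498). Of these only TIMP2 kept its call without any 1 array. PLAT lost it without PC3-N array 1 or Clone 3 array 2 (up to 0.0661), TIMP3 without either PC3-N array or Clone 3 array 2 (up to 0.102), and TIMP1 and ADAM19 without any 1 of the 4 (up to 0.208 and 0.267). Quantile normalization also ended the TIMP1 call (0.103).

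The other large falls spanned metabolism, chromatin and the cell surface. CD59, which shields cells from the complement attack complex, read 639 and 443 in Clone 3, against 1310 and 1184 in PC3-N (a log2 change of −1.23, SE 0.19, adjusted p = 0.00475). HSD17B2, the enzyme that inactivates testosterone and oestradiol, read 56.1 and 44.8 against 166 and 106 (−1.40, SE 0.19, adjusted p = 0.00265). H2BC12, a replication-dependent histone H2B gene with near-identical copies, read 140 and 94.6 against 302 and 246 (−1.24, SE 0.21, adjusted p = 0.00628). These 3 are among the falls chosen to be lower on both Clone 3 arrays. Each missed the threshold when the 4 arrays were fitted alone (0.0629 for CD59, 0.0768 for HSD17B2 and 0.0756 for H2BC12). UQCC5, an assembly factor of respiratory complex III, read 71.8 and 74.6 in Clone 3, against 167 and 187 in PC3-N (−1.27, SE 0.10, adjusted p = 0.000191). LMO7, a junction-associated LIM protein, read 113 and 104 against 298 and 235 (−1.29, adjusted p = 0.00317), and the transcription factor MEF2C read 63.6 and 53.1 against 131 and 144 (−1.24, adjusted p = 0.00347). RBP7, a retinol-binding protein, fell by 1.19 on the log2 scale (adjusted p = 0.00271), and CCNA1, the testis-enriched cyclin A1, read 66.8 and 61.8 in Clone 3 and 141 and 148 in PC3-N (−1.17, adjusted p = 0.00149). In 10 of the 15 largest falls both Clone 3 arrays lay below all 8 arrays of the other PC3 lines. Of all genes 6.47% had that pattern, but the 15 were chosen to lie below the 2 PC3-N arrays, so the shares cannot be compared. The exceptions were KDR, KRT75, LMO7, CD59 and CCNA1. In the comparisons given below, 10 of the 15 were called lower against PC3-ML (2.9% of all genes), 6 against Clone 1 (5.85%) and 4 against both. Those counts share the Clone 3 arrays, so they cannot be compared with the shares either. RGS4 and TIMP2 lay below all 8 arrays but were called against neither PC3-ML (adjusted p = 0.711 and 0.0917) nor Clone 1 (0.418 and 0.147).

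**Figure D3:**
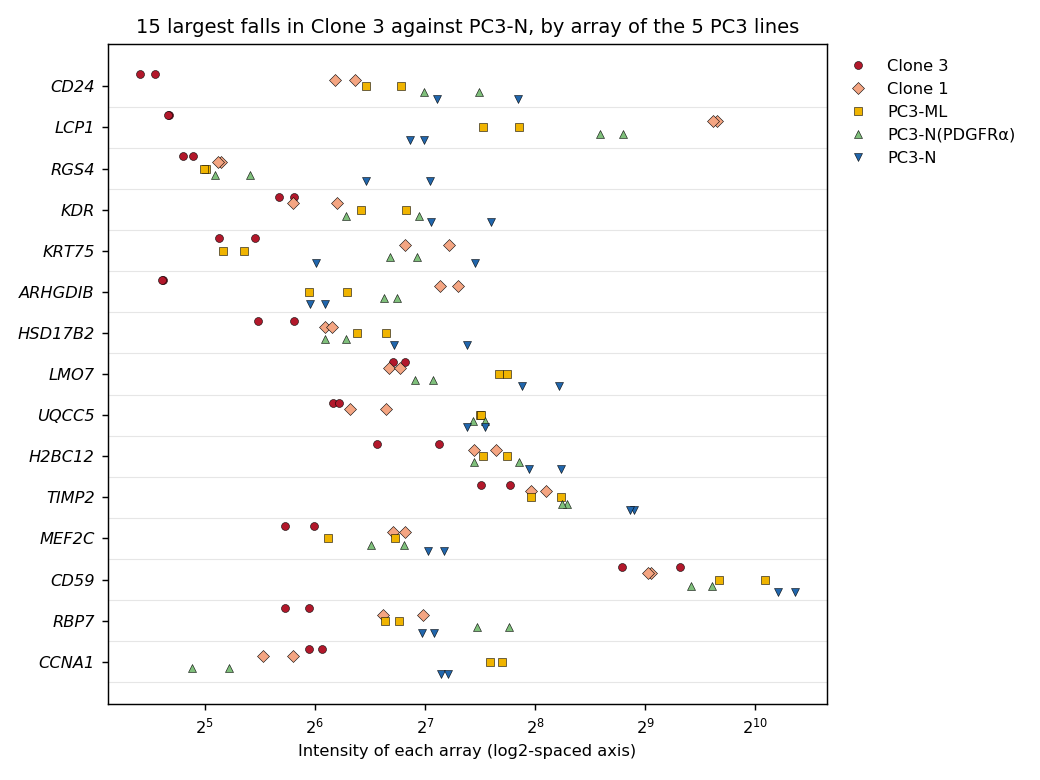
Intensity (horizontal axis, log2-spaced) of the 15 genes with the largest falls, small RNAs left out, in Clone 3 against PC3-N, 1 row per gene, with 1 symbol per array of the 5 PC3 lines. The Clone 3 arrays of LCP1 lie at 25.5 and 25.3 while all other PC3 arrays lie at 117 or above, whereas for RGS4 the 2 PC3-N arrays stand apart from all others.

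The calls among cell junction, adhesion and progenitor genes are read beside the 4.16% of all genes called higher and 2.69% called lower. Of 17 epithelial junction genes, 3 rose and 0 fell (median 0.02): the desmosomal genes DSP, at 191 and 217 in Clone 3 and 116 and 107 in PC3-N (log2 change 0.87, adjusted p = 0.00141), and DSC2, at 340 and 299 against 197 and 153 (0.88, adjusted p = 0.00655), and the tight junction gene TJP1 (0.41, adjusted p = 0.0246). Of 14 integrins, 3 rose and 0 fell (median −0.02): ITGA6, which pairs into laminin receptors, at 1213 and 1230 against 844 and 773 (0.60, adjusted p = 0.00591), ITGAV (0.66, adjusted p = 0.00964) and ITGA2 (0.50, adjusted p = 0.0429). ITGA6 and ITGA2 are also the rises among 15 progenitor surface markers and aldehyde dehydrogenases, where 3 fell (median −0.02): CD24, the ectonucleotidase NT5E, or CD73, at 125 and 110 against 317 and 180 (−1.03, adjusted p = 0.0364), and LGR5 near the floor (−0.36, adjusted p = 0.0264). Among 14 mesenchymal genes, TNC, or tenascin C, rose (0.91, adjusted p = 0.00330) and S100A4 fell, at 556 and 493 in Clone 3 and 1227 and 983 in PC3-N (−1.07, adjusted p = 0.0154). DSP, ITGA6 and TNC kept their calls without any 1 array. DSC2 lost its call without Clone 3 array 1 (0.0571); TJP1, ITGA2, NT5E and S100A4 lost theirs without PC3-N array 1 or either Clone 3 array (up to 0.151, 0.216, 0.179 and 0.0999), and ITGAV and LGR5 without PC3-N array 2 or either Clone 3 array (up to 0.0649 and 0.162). Without PC3-N array 1 the change of NT5E was −0.62, and without PC3-N array 2 that of LGR5 was −0.23. Quantile normalization left the TJP1 change at 0.27 and ended its call and that of ITGA2.

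Of 20 genes of MAPK output and feedback, 3 rose and 3 fell (median −0.12), beside 4.16% and 2.69% of all genes. PHLDA1, an early response gene, read 1025 and 1131 in Clone 3, against 671 and 619 in PC3-N (log2 change 0.74, adjusted p = 0.00326). MYC, the proliferation-driving transcription factor, read 503 and 414 against 294 and 283 (0.66, adjusted p = 0.00239; 0.0659 with the 4 arrays fitted alone). ETV5, an ETS factor induced by the pathway, read 115 and 113 against 179 and 163 (−0.59, adjusted p = 0.00286). These 3 kept their calls without any 1 array. The Ras-pathway inhibitor SPRED1 had a change of 0.62 (adjusted p = 0.0453), JUN −0.50 (0.0169) and the phosphatase DUSP4 −0.42 (0.00907). SPRED1 lost its call without any 1 array (up to 0.242) and after quantile normalization, JUN without PC3-N array 2 or either Clone 3 array (up to 0.113), and DUSP4 without array 2 of either line (up to 0.0719). None of the 10 EGF receptor family genes and ligands was called, with HBEGF closest at 66.9 and 65.4 in Clone 3 and 97.3 and 129 in PC3-N (−0.76, adjusted p = 0.0508).

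The series centres on PDGFRα, and PDGFRA itself read 130 and 126 in Clone 3, against 103 and 109 in PC3-N (log2 change 0.27, adjusted p = 0.544). Clone 3 was thus near PC3-ML (mean 130) and far above Clone 1 (28.8), and the PC3-N level was well above the floor. None of the 7 PDGF ligands and receptors was called (median 0.01). PDGFC, a ligand of the receptor, read 85.8 and 82.8 in Clone 3 and 122 and 99 in PC3-N (−0.39, adjusted p = 0.0596). ELMO1, which acts in engulfment and cell migration, was near the floor, at 21.5 and 20.7 in Clone 3 and 21.9 and 20.3 in PC3-N.

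The calls among genes tied to bone, hormone response, lineage and metabolism are each read against the 4.16% of all genes called higher and 2.69% called lower. Among 14 bone and osteomimicry genes 2 rose: RUNX2, the master transcription factor of osteoblasts, at 49.5 and 51.8 in Clone 3 and 33.3 and 34.6 in PC3-N (log2 change 0.58, adjusted p = 0.00647), and DKK1, a secreted Wnt inhibitor, at 920 and 839 against 628 and 633 (0.48, adjusted p = 0.00961). RUNX2 lost its call without Clone 3 array 2 (0.0518), and DKK1 without Clone 3 array 1 (0.0775) and after quantile normalization, where its change was 0.32. Among 13 TGF-beta family genes 2 fell: the co-receptor TGFBR3, at 28.2 and 27.8 against 50.2 and 43.5 (−0.74, adjusted p = 0.00564), and the activin antagonist FST (−0.66, adjusted p = 0.0127; up to 0.0759 without PC3-N array 1 or either Clone 3 array). The interferon-stimulated genes had a single call of 15, IFI44L, at 64.2 and 58.0 in Clone 3 and 27.5 and 24.0 in PC3-N (1.25, SE 0.09, adjusted p = 7.46e-05), whose arrays in all other PC3 lines averaged 24.3 to 28.7. IFIT1 and ISG15, core members of that response, had changes of −0.66 (adjusted p = 0.575) and −0.49 (0.0556).

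Among 22 cell cycle genes 2 rose and 1 fell (median 0.03). AURKA, the mitotic kinase Aurora A, read 366 and 350 in Clone 3, against 236 and 242 in PC3-N (log2 change 0.58, adjusted p = 0.000293), TOP2A had a change of 0.52 (adjusted p = 0.00855), and the fall was CCNA1. Of 17 hypoxia and glycolysis genes 1 rose, the collagen hydroxylase P4HA1 (0.53, adjusted p = 0.0380), and 1 fell, BNIP3 (−0.75, adjusted p = 0.0242). Single calls stood among 6 androgen receptor program genes (STEAP2, 0.63, adjusted p = 0.0135), 13 HOX genes (HOXB5, −0.46, adjusted p = 0.0381) and, besides FEZ1, 13 neuroendocrine and neuronal genes (SCG5, −0.42, adjusted p = 0.0122). SCG5 read 22.2 and 23.9 in Clone 3, near the floor, and 29.8 and 31.6 in PC3-N. None of 16 amino acid and endoplasmic reticulum stress genes or 12 cholesterol synthesis genes was called. Of the calls in these lists outside the 30 largest changes, AURKA alone kept its call without any 1 array. TOP2A lost its call without array 1 of either line (up to 0.0600), SCG5 without PC3-N array 2 or Clone 3 array 1 (up to 0.0909), and P4HA1, BNIP3, STEAP2 and HOXB5 without any 1 of the 4 (up to 0.199, 0.125, 0.0838 and 0.198). Quantile normalization also ended the calls of TOP2A, P4HA1 and HOXB5.

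**Figure D4:**
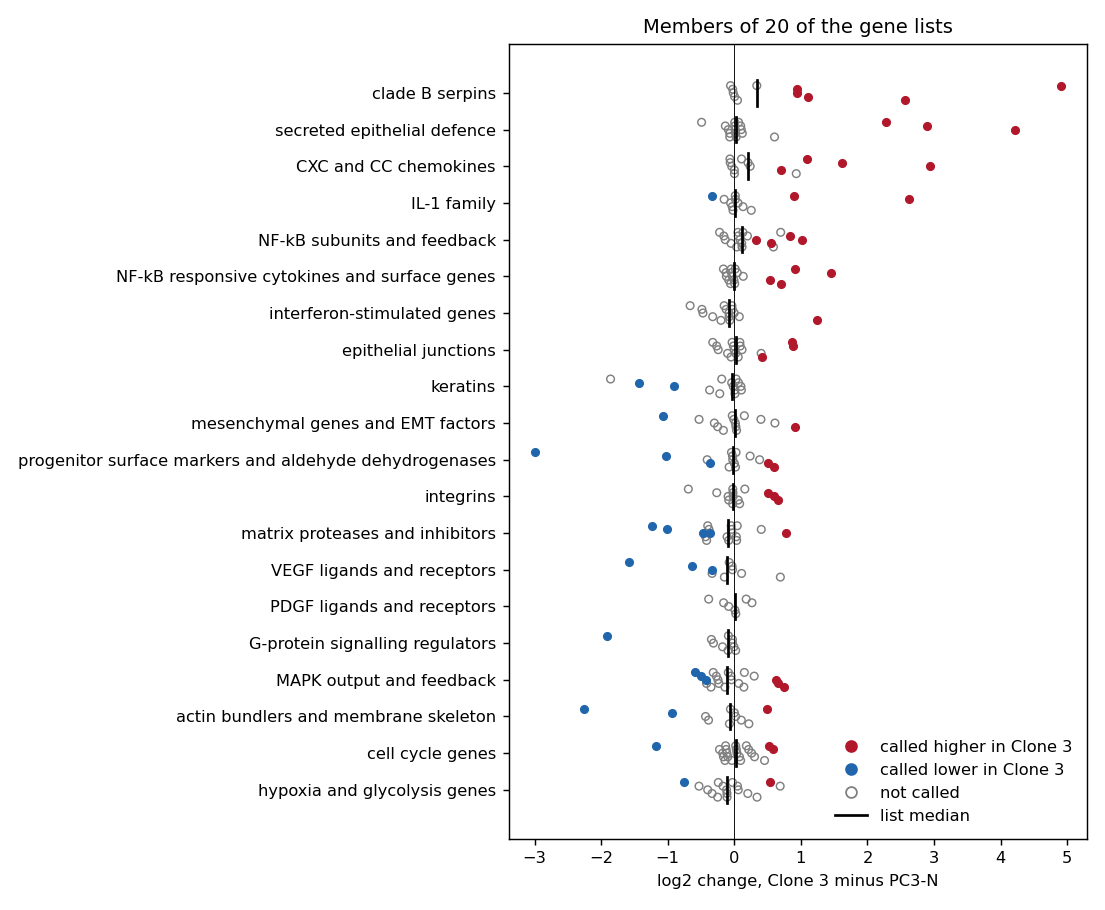
Log2 change, Clone 3 minus PC3-N (horizontal axis), of the measured members of 20 gene lists, 1 row per list. Each point is a gene, filled where called and open where not, and the bar is the median of the list. Most points lie near 0, and the largest values are SERPINB3 (4.91) in the serpin row and LCN2 (4.21) in the secreted defence row.

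To place the changes, the same Clone 3 arrays were also set against PC3-ML, the uncloned parent, and against Clone 1. These comparisons share the Clone 3 arrays with the first, so their values stand beside it and are no separate evidence. Against PC3-ML 1489 genes were called (8.1%), 956 higher (5.2%) and 533 lower (2.9%). The higher calls were 64.2% of these, and 52.6% after quantile normalization. Against Clone 1 1925 genes were called (10.5%), 850 higher (4.63%) and 1075 lower (5.85%). SERPINB3 was higher in Clone 3 than in PC3-ML (log2 change 4.50, adjusted p = 5.63e-08) and than in Clone 1 (4.73, adjusted p = 3.48e-08). LCN2 was higher by 3.49 and 3.20, FEZ1 by 2.81 and 3.55, TNFAIP6 by 1.99 and 2.73, and PLA2G4A by 2.24 and 2.46, all called. Against PC3-N the changes of these genes were 4.91 for SERPINB3, 4.21 for LCN2, 3.50 for FEZ1, 2.78 for TNFAIP6 and 2.42 for PLA2G4A.

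Some other genes called against PC3-N were not higher, or not lower, in Clone 3 than in both relatives. CXCL6 differed from PC3-ML by 0.60 (adjusted p = 0.0133; up to 0.101 without PC3-ML array 2 or Clone 3 array 1, and 0.0669 after quantile normalization) and from Clone 1 by −0.01 (0.990). IL1B had changes of 0.96 from PC3-ML (adjusted p = 0.00302) and −0.53 from Clone 1 (0.0332; up to 0.226 without either Clone 1 array or Clone 3 array 2). NFKBIA differed by −0.06 from PC3-ML (adjusted p = 0.887) and by −0.04 from Clone 1 (0.952), its level being 205 in PC3-ML and 202 in Clone 1. RGS4 likewise differed by −0.16 (adjusted p = 0.711) and −0.29 (0.418). Among the falls, LCP1 was lower by far against both, with changes of −3.02 from PC3-ML and −4.96 from Clone 1, while CCNA1 had changes of −1.64 from PC3-ML (adjusted p = 0.000236) and 0.34 from Clone 1 (0.181).

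The largest differences from the relatives included genes with small or no called changes against PC3-N. ESM1, a secreted proteoglycan, read 21.6 and 24.0 in Clone 3 and 21.7 and 29.4 in PC3-N (log2 change −0.15, adjusted p = 0.653), whereas PC3-ML averaged 125 (−2.45, adjusted p = 1.10e-05) and Clone 1 147 (−2.69, 4.01e-06). EPB41L3 had a change of −2.96 from PC3-ML (adjusted p = 2.58e-06), and ZFPM2, a cofactor of GATA factors, and TIMP3 had changes of −2.47 and −2.22 there. These 3 were also called lower against PC3-N, with changes of −0.94 for EPB41L3, −0.53 for ZFPM2 (adjusted p = 0.0131; up to 0.0908 without PC3-N array 1 or Clone 3 array 1) and −0.48 for TIMP3. Against Clone 1, IL13RA2, a decoy receptor for interleukin-13 (−2.96), and PODXL, an anti-adhesive sialomucin (−2.70), were lower, and ZNF667-AS1, an antisense RNA (2.88), and TFF1 (2.85) higher. The array labels do not state whether the probe sets read 1 strand, so ZNF667-AS1 may not be told apart from its partner gene.

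The changes were last laid out along the order of neighbouring genes in RefSeq. This is a description with no test, and the stretches were chosen by their values. Over 18344 placed genes, the median change of each run of 25 neighbours was taken; their 1st and 99th percentiles were −0.11 and 0.13, and 43.4% of single genes were above 0. The highest run, from CEP295 to JRKL, had a median of 0.31, with 10 genes called higher and 0 lower, among them the DNA repair gene MRE11 and the channel gene PANX1. Its median against the PC3-N mean was 0.30 and 0.32 on the 2 Clone 3 arrays, 0.17 and 0.19 in Clone 1 and 0.10 and 0.12 in PC3-ML. In the run from RAI14 to RICTOR the median was 0.29, with 11 called higher and 0 lower, including SKP2, a ubiquitin ligase subunit, and NIPBL, a cohesin loader. There the Clone 3 arrays stood at 0.24 and 0.31, PC3-ML at 0.01 and 0.05 and Clone 1 at −0.06 and −0.11. The run from CAPS2 to TMTC2, which holds PHLDA1, had a median of 0.30 with 8 called higher and 1 lower, and its Clone 3 arrays differed, at 0.37 and 0.18.

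The lowest run, from PCYT1A to LMLN, had a median of −0.24 with 5 genes called lower and 0 higher, at −0.26 and −0.21 on the Clone 3 arrays and at −0.28 and −0.18 in PC3-ML, but 0.03 on both Clone 1 arrays. CD24 lay in the run from POPDC3 to SMPD2 (median −0.18, 4 called lower and 0 higher). Joined where they overlapped, runs past the upper limit formed 20 stretches. The longest, of 65 genes from CASP12 to HTR3A, held 18 genes called higher (27.7%) and 0 lower, IL18 and RDX among them. Its median was only 0.04, and against the PC3-N mean PC3-ML stood as high (0.06 and 0.07) as Clone 3 (0.07 and 0.05). The stretch of 45 genes from PTPN2 to DSG4 held DSC2 and 8 others called higher (20%). Over all genes 4.16% were called higher, but the stretches were chosen by their values. FEZ1 lay in a stretch of 35 genes from MSANTD2 to KCNJ5 (median 0.07) in which 5 were called higher (14.3%). FER1L6 lay in 39 genes from TRPS1 to RNF139 (median 0.13) with 6 called higher (15.4%). Expression arrays do not measure DNA copy number, and whether copy number moves with these runs was not tested.

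**Figure D5:**
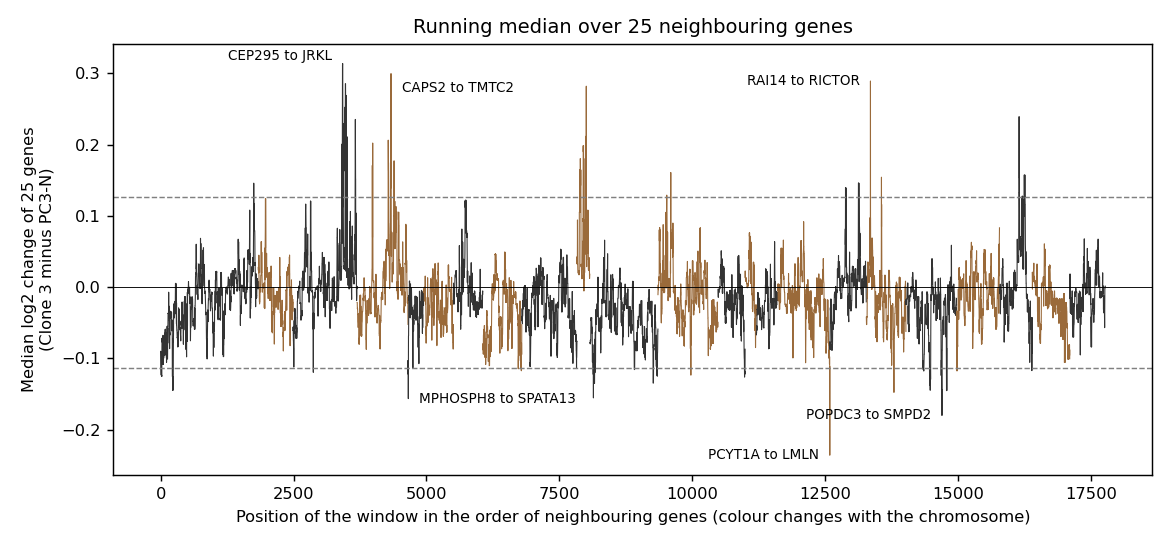
Median log2 change, Clone 3 minus PC3-N, over each run of 25 neighbouring genes (vertical axis), by the position of the run in RefSeq order (horizontal axis), with the line colour changing at each chromosome. Dashed lines mark the 1st and 99th percentile of all runs (−0.11 and 0.13), and the labels name the 3 highest and 3 lowest separate runs, from 0.31 at CEP295 to JRKL down to −0.24 at PCYT1A to LMLN.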

How the data were processed

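Each of 7 lines was measured on 2 single-colour arrays. The deposited values are intensities per probe set after RMA by the authors, per the submitters' processing notes; neither its version nor the chip definition is given in the sources used here. That the scale is linear was read from the values (18.5 to 8654), which were converted to log2 with no pseudocount and no filter. Of 28829 probe sets, 19291 carried 1 gene symbol, 1735 several and 7803 none; 19260 matched RefSeq (GRCh38.p14), and 0 symbols were updated. Where a gene had several probe sets (682 genes), the brightest on average was used. Arrays give no counts, so their number limits the precision.

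The fit used limma 3.58.1 under R 4.3.3 (lmFit, contrasts.fit and eBayes), with a mean for each line, all 14 arrays and 7 residual degrees of freedom, and the script was tested on simulated data. Genes were called at a Benjamini-Hochberg adjusted p under 0.05 over 18372 genes in each of 3 comparisons. Promoters came from RefSeq and were searched with Python 3.11.15.

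Named genes were the 15 largest rises and falls among called genes with no overlap between the arrays of the lines, up to 6 called and 2 uncalled members of each list, 5 per direction in the 2 other comparisons, and PDGFRA, IL1B, CXCL6 and ELMO1. Small RNAs, pseudogenes, unnamed loci and Y-linked genes were left out. CXCL3, CDH1, CDH2, CDH11, VIM, SNORD116-6 and the genes named within runs of neighbours were chosen after their values were seen. The members and the 33 lists (409 of 449 genes measured) were chosen with earlier results of these data known. Alternatives were quantile normalization, leaving out dim genes, fits of PC3 lines or of the 2 lines alone, a replicate block, the mean of probe sets, an intensity trend with a robust prior, and leaving out each array.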

Additional observations from a re-analysis of the deposited data

How the results depend on the processing

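Fitted on the 4 arrays of each comparison alone, 484 genes were called in Clone 3 minus PC3-N and 944 in Clone 3 minus PC3-ML, against 1260 and 1489 from all arrays. In Clone 3 minus Clone 1 the count rose instead, to 2035 against 1925 from all arrays. Each of these fits leaves 2 residual degrees of freedom. Without 1 array in turn the counts ran from 604 to 843 against PC3-N, from 431 (without PC3-ML array 1) to 1232 against PC3-ML and from 1018 to 1123 against Clone 1. Of 30 leading genes, 25 kept call and direction under every alternative run. The exceptions were KRT75, which lost its call in 5 of them, and CD59, H2BC12, HSD17B2 and SOD2, which lost it only with the 4 arrays fitted alone. Of 51 further list members called, 18 kept their call without any 1 array. Uncalled genes changed sign without 1 array: in Clone 3 minus PC3-N, ELMO1 ran from −0.0515 to 0.0558, IL1R2 from −0.33 to 0.0264, TGFB2 from −0.12 to 0.80, SLC45A3 from −0.0897 to 0.0210, NKG7 from −0.15 to 0.00833, KRT19 from −0.40 to 0.0189, CTNNA1 from −0.0185 to 0.0629 and ESM1 from −0.37 to 0.0685. KRT75 ran from −0.14 to 0.19 against PC3-ML. Against Clone 1, CXCL6 ran from −0.12 to 0.10 (0.0171 after quantile normalization), CXCL1 from −0.0844 to 0.17, SOD2 from −0.25 to 0.44, LMO7 from −0.0148 to 0.10 and CD59 from −0.25 to 0.28. Differences between array 1 and array 2 correlated across genes at 0.08 between Clone 3 and PC3-N, −0.12 with PC3-ML and −0.07 with Clone 1, and at −0.20 (PC3-ML with PC3-N) to 0.24 (PC3-N with PC3-N(PDGFRα)) over all pairs of lines; the numbers were not taken to pair the samples, since not every pair was above 0.1. With the array number as a replicate block 1254 genes were called against PC3-N, 1442 against PC3-ML (1593 with crossed numbers, tried after the data were seen) and 1878 against Clone 1. The block ended the calls of NFKB1 (adjusted p = 0.0562), C3 (0.0512), ITGA2, ADAM19, SPRED1, RDX, P4HA1 and HOXB5 among named genes. Levels near the floor limit what the arrays can resolve.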
